A study of Mus musculus with 3 samples.

Results

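The Schlafen genes Slfn1, Slfn2, Slfn3, Slfn4, Slfn5, Slfn8 and Slfn9 were followed in RAW264.7 cells, a mouse macrophage cell line, after stimulation with LPS, the bacterial cell wall component that activates the receptor TLR4. They were found by their gene names on the arrays, and all 7 were present among 36870 gene names, with 13 probes in all. The authors hybridised RNA from 3 conditions to 1-colour Agilent mouse arrays, with 1 array per condition. The conditions were LPS alone (LPS), Lactiplantibacillus plantarum LOC1 and then LPS (LOC1 + LPS), and L. plantarum LOC3 and then LPS (LOC3 + LPS). Both strains came from tea leaves, and were left on the cells for 12 h according to the series' design text, while the methods give a longer time. RNA was collected 3 h after LPS in each condition, and the dose of LPS is not given alike throughout the study. The unchallenged macrophages were not analysed here as an array of their own, and enter only through log2 ratios that the authors deposited. Since there was 1 array per condition, no SD between replicates, test or p-value could be given for any difference. The number of cultures behind each array is not stated. An array level also cannot tell more RNA per cell from more cells that express the gene.

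Schlafen genes are known as interferon-induced genes of immune cells, and in the mouse they form a cluster on chromosome 11. The proteins share an N-terminal region and differ in length: Slfn1 and Slfn2 are short, Slfn3 and Slfn4 intermediate, and Slfn5, Slfn8 and Slfn9 long, with an added helicase-like region at the C-terminal end. Slfn1 was described for its arrest of thymocyte growth, Slfn2 for keeping T cells and monocytes quiescent and for guarding tRNAs from cleavage, and Slfn4 for its expression in myeloid cells. LPS induces interferon beta in macrophages, and interferon beta in turn acts through its receptor and factors that include Stat2 and Irf9.

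The 13 probes lay within 263 kb of chromosome 11, at chr11:82765536-83028490 of mm9, the build of the array files. Slfn5, Slfn2, Slfn1, Slfn4 and Slfn3 were read on the plus strand, and Slfn8 and Slfn9 on the minus strand between Slfn5 and Slfn2. Promoter windows for the 7 genes, from 250 bases before to 50 after each start, were taken from RefSeq on GRCm38.p6 (8 windows, with an additional one for Slfn8). They are shown because all members were listed as higher with LPS, and because one searched motif occurred in the long members only. The core of the interferon-stimulated response element, searched as GAAANNGAA on both strands, was present for the 3 long members and for none of the other 4. It was present in 8.56% of all 32851 windows of this length. In the lines below the match is in capitals, with 30 bases on each side, 5′ to 3′ on the gene's strand. It began 155 bases before the start of Slfn5 (chr11:82951917-82951985, plus strand), 47 before one start of Slfn8 (chr11:83020819-83020887, minus strand) and 44 before that of Slfn9 (chr11:82991836-82991904, minus strand). In Slfn8 and Slfn9 it was read on the opposite strand. A further match lay 132 bases before the start of Slfn5.
Slfn5: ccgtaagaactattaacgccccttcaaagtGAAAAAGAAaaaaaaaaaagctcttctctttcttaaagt
Slfn8: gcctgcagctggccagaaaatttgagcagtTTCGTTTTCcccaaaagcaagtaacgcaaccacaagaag
Slfn9: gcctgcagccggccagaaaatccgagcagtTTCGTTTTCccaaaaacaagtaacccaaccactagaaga

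The windows of Slfn8 and Slfn9 were the most alike of the 21 pairs, with 246 identical bases in the alignment, whereas no other pair had over 165. The short and intermediate members instead shared the letters ACTTCCTGG, of the kind bound by ETS factors, a family that includes the macrophage factor Spi1. This motif was searched only after the sequences had been seen, and 0.843% of all windows held it on either strand. It began 74 bases before the start of Slfn1 (chr11:83116716-83116784), 55 before Slfn2 (chr11:83065027-83065095), 42 before Slfn3 (chr11:83191258-83191326) and 73 before Slfn4 (chr11:83175083-83175151), all on the plus strand. The capitals mark it in the following lines.
Slfn1: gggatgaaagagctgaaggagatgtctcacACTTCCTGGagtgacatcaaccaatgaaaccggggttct
Slfn2: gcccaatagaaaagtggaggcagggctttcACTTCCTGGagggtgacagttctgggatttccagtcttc
Slfn3: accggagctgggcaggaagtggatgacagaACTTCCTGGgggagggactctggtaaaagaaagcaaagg
Slfn4: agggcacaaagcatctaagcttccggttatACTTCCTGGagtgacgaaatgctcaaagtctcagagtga

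The NF-kB motif GGGNTTTCC was present for Slfn2, where it began 32 bases before the start, and for Slfn5, 93 bases before it, against 1.68% of all windows. The STAT dimer motif TTCNNNGAA was found in none of the 8 windows, against 8.30% of all windows. None of these matches overlapped a match of another motif. A match only describes the letters in a window, and binding was not measured.

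All 13 Schlafen probes were well above background on all 3 arrays, by the flag of the scanner software. On each single array 47.8% to 51.9% of all probes were. No spot of the arrays was saturated. Each Schlafen probe was printed once per array. Spot noise was read from probes printed 10 times, and gave a technical SD of a log2 difference of 0.06 for bright probes (269 probes) and 0.31 for dim ones (10 to 12 probes). Feature Extraction, the scanner software, gives a broader error of its own, and for the Schlafen probes the SE of a log2 difference built from it was 0.20 to 0.32. Neither includes the variation between cultures. The 8 macrophage markers were all well above background on all 3 arrays. Of the markers of other cell types, 0 of 3 B cell and 0 of 4 epithelial cell markers were well above background on all 3 arrays. The B cell marker Ms4a1 was flagged with LPS (29.0) and LOC1 + LPS (55.9), and the epithelial marker Epcam with LPS (20.7). Of 3 fibroblast markers 2 were well above background on all 3 arrays, Col1a1 and Pdgfra, with intensities from 23.1 to 53.9. Of 5 T cell markers 3 were, with Cd3d at 42.9 to 66.4, Cd3e at 396 to 451 and Cd4 at 738 to 895, while Cd3g and Cd8a were not well above background on any array.

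**Figure D1:**
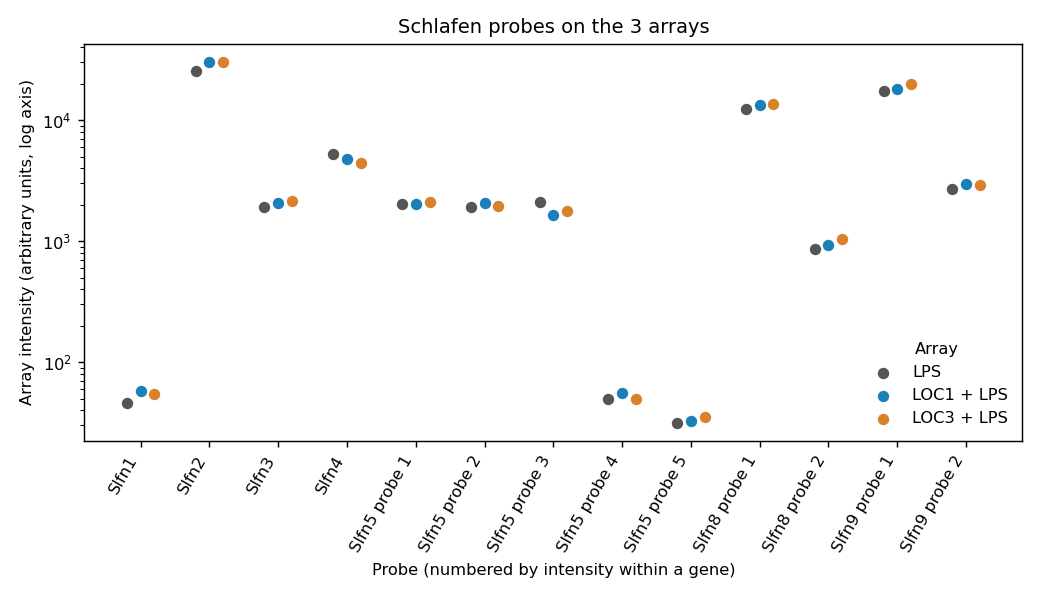
Intensity of the 13 Schlafen probes (log axis, arbitrary units) on the LPS, LOC1 + LPS and LOC3 + LPS arrays, 1 point per array and with no scaling between arrays. The points of each probe lie close together, and Slfn1 and the Slfn5 probes 4 and 5 are the dim ones, at 31.5 to 57.3. Different probes cannot be compared for the amount of RNA.

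The first comparison asked how LPS itself moved the family. In the ratios deposited by the authors, all 7 Schlafen genes had a probe listed as higher in LPS-challenged than in unchallenged macrophages, and none had a probe listed as lower. Of the 19337 gene names with LPS signals well above background, 14.5% had a probe listed as higher and 11% one listed as lower. Among the probes themselves, 8 of the 13 Schlafen probes were listed as higher, against 10.3% of the 29351 probes well above background. Their log2 ratios ran from 1.73 to 5.50 with a median of 4.18, whereas the median over all 4006 probes listed as higher with LPS was 1.66. The table gives only ratios of at least 2-fold, so these medians are of listed probes. Slfn1 and Slfn5 enter as deposited, at 3.74 and 3.91, though both ratios rest on a dim unchallenged signal. As bounds they are at least 1.50 and 1.60, which would lower the family's median. The 4006 probes were not filtered by background, while the 8 Schlafen probes all passed that filter.

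Among the short members, Slfn2 had a deposited log2 ratio of 4.46 with LPS, which is 22.0-fold over unchallenged macrophages. Slfn1 was listed at 3.74, but the unchallenged signal that this ratio implies lay under the background limit of the LPS array, its dimmest signal flagged as well above background, at an intensity of 16.3. Set against that limit, which stands in for the unchallenged array, Slfn1 was at least 2.83-fold higher.

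The intermediate members were far apart. Slfn4 had the highest ratio of the family, 5.50 on the log2 scale, which is 45.2-fold. For Slfn3, which lies next to it on the chromosome, the ratio was 2.63, or 6.17-fold.

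For the long member Slfn8 both probes were listed, with log2 ratios of 4.97 (31.4-fold) and 4.88 (29.5-fold). These probes target separate stretches of the transcripts. Slfn9 was listed for the dimmer of its 2 probes only, at 1.73, or 3.31-fold, the lowest of the 8 listed ratios as deposited, though the bounds for Slfn1 and Slfn5 allow lower ones. That probe has a run of 20 bases in common with 1 probe of another gene, 4930512M02Rik. The brighter Slfn9 probe was annotated to Slfn8, Slfn9 and the pseudogene Slfn10-ps together, so its signal cannot be given to Slfn9 alone, and the table does not list it. Slfn5 was listed for 1 dim probe of 5, at 3.91, which as a bound is at least 3.03-fold. The other 4 Slfn5 probes are unlisted, and the absence of a probe from the table does not give its ratio. Of 146 probes that were well above background on all 3 arrays and spanned over 4-fold between them, 17 were absent as well.

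**Figure D2:**
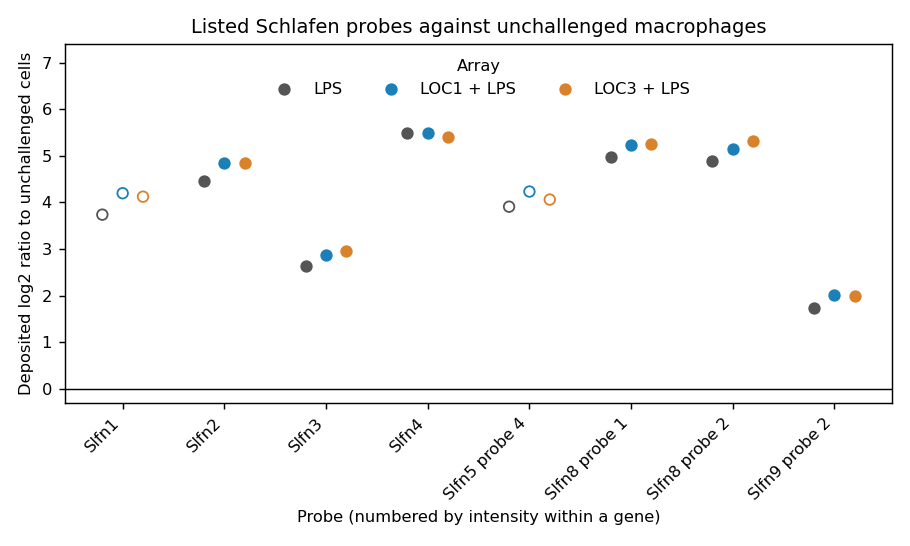
Log2 ratio to unchallenged macrophages, as deposited by the authors, for the 8 listed Schlafen probes in the LPS, LOC1 + LPS and LOC3 + LPS arrays. Open points mark Slfn1 and the Slfn5 probe, whose implied unchallenged signal was under the background limit, and all the points lie between 1.73 and 5.50.

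With lactobacilli before LPS, the same 8 probes stayed listed as higher than in unchallenged cells. In the LOC1 + LPS column their log2 ratios ran from 2.02 for Slfn9 to 5.50 for Slfn4, and in the LOC3 + LPS column from 1.99 to 5.40. These 3 columns share 1 unchallenged reference, so they are no repeats of each other. For Slfn2 the deposited ratio was 4.84 with LOC1 and 4.83 with LOC3, and for Slfn3 it was 2.88 and 2.95.

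The next comparison asked what LOC1 or LOC3 added to the LPS response. For it, the log2 intensity was set relative to the 75th percentile of each array, and each gene was represented by its brightest probe. No Schlafen gene was 2-fold higher or lower than with LPS alone. With LOC1, 2.49% of the 20019 genes compared were past 2-fold upward and 3.81% downward, and with LOC3 the shares of 19790 genes were 2.98% and 3.18%. Smaller differences ran mostly upward: 6 of 7 Schlafen genes were above the LPS array with LOC1 and 6 of 7 with LOC3, where 50.1% and 54.0% of all genes were. Over the 7 genes the median log2 difference was 0.22 for LOC1 and 0.29 for LOC3, while over all genes it was 0.0015 and 0.03. The Slfn9 value among the 7 is that of the probe shared with Slfn8 and Slfn10-ps (0.17 and 0.29). The probe of Slfn9 alone gave 0.26 and 0.22. The family's median for LOC1 was 0.14 with quantile normalization and 0.44 with median scaling, and for LOC3 it was 0.20 and 0.47 in the same order. The LPS array is shared by both comparisons, so that an error on it would move both together.

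Slfn2 had intensities of 25716 with LPS, 30261 with LOC1 + LPS and 30271 with LOC3 + LPS. Both lactobacilli arrays were above LPS alone, by 0.35 and 0.34 on the log2 scale after scaling (SE 0.20 by the error model of the software). The first of these was above 83.2% of all genes compared. Slfn1 was dim, with 46.1, 57.3 and 54.6 in the same order. Its differences of 0.43 and 0.35 were the widest of the 7 genes, and both were above the technical SD of dim probes, 0.31. With normexp background correction they were 0.26 and 0.21, within that SD and under those of Slfn2, 0.34 and 0.33. With the 75th percentile taken over the probes detected on all arrays, the LOC3 difference of Slfn1 was 0.27, also within that SD. Neither short member differed between LOC1 and LOC3 by more than 0.08.

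Slfn3 had intensities of 1903, 2049 and 2167 with LPS, LOC1 + LPS and LOC3 + LPS. Its log2 differences of 0.22 (LOC1) and 0.29 (LOC3) were again above LPS alone. Slfn4 ran the other way, with 5258, 4751 and 4449. It was the only member whose brightest probe was lower than with LPS alone, by -0.03 with LOC1, which is within the technical SD, and by -0.14 with LOC3. This sign depends on the scaling: with the median of all probes in place of the 75th percentile, the differences of Slfn4 were 0.18 and 0.05. That change moves all genes alike, by 0.22 for LOC1 and 0.18 for LOC3, so Slfn4 kept its place below the other 6 members in both comparisons.

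The 2 probes of Slfn8 ran the same way, and were closer in size with LOC1 than with LOC3. The brighter one had intensities of 12404, 13458 and 13695 with LPS, LOC1 + LPS and LOC3 + LPS, and log2 differences of 0.23 and 0.25. The dimmer one had 860, 929 and 1051, with differences of 0.22 and 0.39. For Slfn9, the probe shared with Slfn8 and Slfn10-ps had 17489, 18239 and 19921, with differences of 0.17 and 0.29. The probe annotated to Slfn9 alone had 2702, 2985 and 2938, with differences of 0.26 and 0.22. All 4 of these probes of the long members were above LPS alone with both strains.

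The 5 probes of Slfn5 did not all run the same way. The brightest by mean level had intensities of 2011, 2042 and 2089, with log2 differences of 0.13 for LOC1 and 0.16 for LOC3. A probe of the same transcript had 1925, 2084 and 1966, with 0.23 and 0.13, and the dim listed probe had 49.4, 55.9 and 49.8, with 0.29 and 0.12, within the technical SD of dim probes. The remaining 2 probes belong to another transcript model that begins upstream, and they start 68 and 7 bases before the RefSeq start of Slfn5, inside the promoter window. The first of them had 2112, 1660 and 1763, and was lower with both strains, by -0.23 and -0.16. The second was dim, with 31.5, 32.9 and 34.9, and its differences of 0.17 and 0.25 were within that SD too. The 2 upstream probes thus differed in sign, and the lower one was the only probe of the family besides that of Slfn4 to be below LPS alone. Over all 13 probes, 11 were higher with LOC1 and 11 with LOC3.

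**Figure D3:**
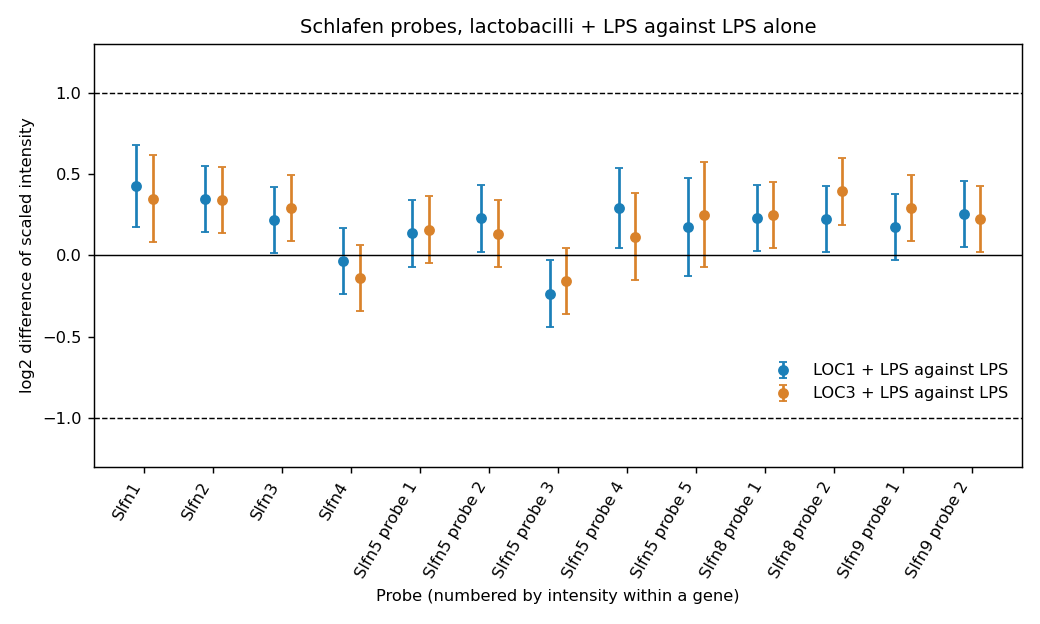
Log2 difference of scaled intensity from LPS alone for the 13 Schlafen probes, with LOC1 + LPS and with LOC3 + LPS. Bars are 1 SE from the error model of the scanner software and hold no variation between cultures, and dashed lines mark 2-fold. The points lie between -0.23 and 0.43, and those of Slfn4 and of Slfn5 probe 3 (the brighter of the 2 upstream probes) lie below 0 with both strains.

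Against the errors of the measurement, 6 of the 7 genes with LOC1 and 7 with LOC3 differed from LPS alone by more than the technical SD. By more than 1 SE of the software's error model, 4 genes did with LOC1 and 5 with LOC3, and by more than 2 SE 0 did with either. The shares of all genes past the same errors were not counted. Over all genes the 10th and 90th percentiles of the log2 difference were -0.64 and 0.50 with LOC1. With LOC3 they were -0.56 and 0.51, so many other genes passed the technical SD too. The counts for the family depend on the scaling, and median scaling raised the median of all genes as well, by 0.22 with LOC1 and 0.18 with LOC3. With median scaling, 4 genes passed 2 SE with LOC1 (Slfn1, Slfn2, Slfn3 and Slfn8) and 4 with LOC3 (Slfn2, Slfn3, Slfn8 and Slfn9), and with quantile normalization Slfn1 passed it with LOC1. The counts past 1 SE rose to 6 with each strain under median scaling. They fell to 2 with LOC1 and 4 with LOC3 under quantile normalization, and likewise with the 75th percentile over the probes detected on all arrays.

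Between the strains, the Schlafen genes were closer still. None of the 7 differed 2-fold between LOC1 + LPS and LOC3 + LPS, where 0.8% of 19382 genes passed 2-fold upward with LOC1 and 1.83% downward. The log2 differences ran from -0.12 for the shared Slfn9 probe to 0.10 for Slfn4, with a median of -0.02, equal at this precision to the median of all genes. Of the 7 genes 3 were higher with LOC1, though the sign for Slfn5, Slfn8 and Slfn9 turned under other processing, and 0 differed by more than 1 SE of the error model.

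Of the other array names that begin with Slfn, only the pseudogene Slfn10-ps, which lies inside the cluster, had probes well above background. Its brighter probe had intensities of 7517, 7487 and 7074 with LPS, LOC1 + LPS and LOC3 + LPS, and its dimmer one 1426, 1312 and 1395. Their log2 differences from LPS alone were between -0.01 and 0.11. The dimmer probe was listed at a ratio of 3.76 to unchallenged macrophages, or 13.5-fold. Slfn14, Slfn5os and Slfnl1 were not well above background on any array.

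A list of 24 genes of the type I interferon pathway was set beside the family. All 24 were well above background on all 3 arrays, and 20 had a probe listed as higher with LPS than in unchallenged cells. With LOC1 and with LOC3, 2 of the 24 were at least 2-fold above LPS alone and 0 at least 2-fold below it. These were Ifnb1, which encodes the ligand interferon beta, and Ifit3, one of its targets. Ifnb1 had intensities of 1251 with LPS, 29911 with LOC1 + LPS and 18122 with LOC3 + LPS, and log2 differences of 4.69 and 3.96. Ifit3 had 12660, 33122 and 28854, with differences of 1.50 and 1.29. The ligand and the Schlafen genes thus differed widely in size: no Schlafen probe exceeded 0.43 on the log2 scale.

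Below 2-fold, the pathway genes ran both ways. The factor Stat2 had log2 differences of 0.17 and 0.26 with LOC1 and LOC3. Irf9, which binds the response element together with it, had -0.06 and 0.01. Irf7, which amplifies interferon transcription, had 0.46 and 0.62. Of genes singled out after their values were seen, the targets Ifit2 (0.88 and 0.76) and Mx1 (0.87 and 0.91) lay above every Schlafen gene, while the receptor gene Ifnar1 (-0.66 and -0.75) and the feedback gene Socs1 (-0.64 and -0.33) lay below LPS alone. Other targets, Cxcl10 (0.08 and 0.15), Irgm1 (0.17 and 0.15) and Gbp2 (0.04 and 0.08), lay below the Schlafen medians. The targets not named lay between these and the higher ones. The median over the 24 genes was 0.34 with LOC1 and 0.35 with LOC3, with 19 and 20 genes above 0.

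Within 250 kb on either side of the cluster the array held 39 probes of 25 other gene names, of which 30 probes were well above background with LPS alone. Of these 30, 5 were listed as higher than in unchallenged cells, against 8 of the 13 Schlafen probes. Their median log2 difference from LPS alone was -0.07 with LOC1 and -0.06 with LOC3 (33 probes in each), while it was 0.22 and 0.25 for the 13 Schlafen probes. Past 2-fold with LOC1 were a probe of Ap2b1, with 13.5 on the LPS array and 39.8 with LOC1, and another of the same gene, with 34.1 and 12.5. With LOC3 only a probe of Fndc8 was, with 8.78 and 33.6. All 3 were dim, and each was not well above background on at least 1 array.

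**Figure D4:**
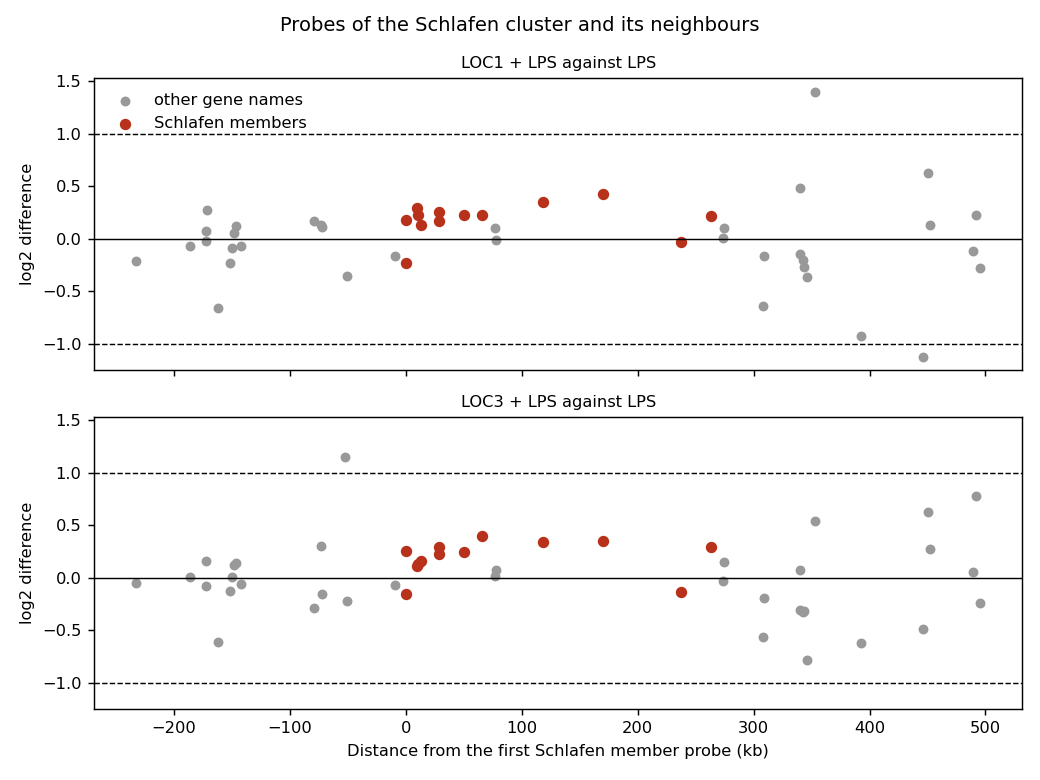
Log2 difference from LPS alone with LOC1 (top) and LOC3 (bottom) by distance from the first Schlafen probe in kb, 1 point per probe. The 13 Schlafen probes lie between -0.23 and 0.43, and grey points are other gene names within 250 kb of the cluster, Slfn10-ps included, with medians of -0.07 and -0.06 when that pseudogene is left out.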

How the data were processed

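RNA of RAW264.7 macrophages was hybridised to 1-colour Agilent mouse arrays, with 1 array for each of 3 conditions. The intensity of each spot was background-corrected by Feature Extraction before the authors deposited it (version 12.0.3.1 per the file headers; the methods give another), with no normalization between arrays. The authors deposited log2 ratios to unchallenged macrophages for 13135 probes, made with GeneSpring and listed only at 2-fold or more. R 3.2.5 and limma are also named in the submitters' processing notes.

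Here, outlier spots were left out (118 to 135 per array), and log2 intensities were scaled to each array's 75th percentile (an intensity of 555, 513 and 516) and compared where a gene passed the background flag on either array of a pair. Signals without the flag were raised to the dimmest flagged one (14.5 to 19.8). A gene was its brightest probe, and the threshold was 2-fold. The members, the lists and the tests were chosen with earlier results of these data known. The text names all members and every other Schlafen name above background, set genes of the pathway list (one of them is not reported here), and neighbours past 2-fold. Other genes were placed by their distance to the member with the widest range. Python 3.11.15, numpy 2.4.6, pandas 2.3.3, Biopython 1.88 and matplotlib 3.10.9 were used, with limma 3.58.1 in R 4.3.3 for normexp with an offset of 50. Tested on simulated data for LOC1 + LPS against LPS, with 200 of 19972 genes changed, 98% of 50 genes changed 2.5-fold and 0% of 50 changed 1.5-fold were past 2-fold. The simulated noise was spot noise only, so these shares check the calculation and are no detection rates for cultures that vary. The t-test of the methods needs more than 1 array per condition and was not run. The alternatives were other scalings, normexp, the deposited ratios, other filters, the mean of the probes, outlier spots kept and a 3-fold threshold. The number of arrays limits the precision.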

Additional observations from a re-analysis of the deposited data

How the results depend on the processing

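The count of Schlafen genes past 2-fold was 0 in all 3 comparisons under every alternative tried. Of these, 3 left every Schlafen value as it was (no filter and no floor, both arrays above background, outlier spots kept), and a 3-fold threshold could not raise the count, so the other 6 bear on it. The 7 genes listed as higher with LPS stayed at least 2-fold higher with a dim unchallenged signal raised to the background limit. Over 9 alternatives, 189 values of single genes gave log2 differences from -0.22 to 0.64; 40 moved by more than the technical SD, 12 of them with median scaling, 12 with the 75th percentile over the probes detected on all arrays, and 10 changed sign. Against LPS alone these were the 2 values of Slfn4 with median scaling, and the other 8 were differences of Slfn5, Slfn8 or Slfn9 between the strains. The detected-probe percentile lowered the differences from LPS alone, and median scaling raised them. Median scaling placed 7 of 7 genes above 0 with each strain and raised the median of all genes by 0.22 with LOC1 and 0.18 with LOC3. It also turned the split of all 2-fold calls, of which 39.6% were higher with LOC1 and 48.4% with LOC3, to 65.2% and 68.7%. Quantile normalization gave 50.7% and 58.0%, normexp 50.2% and 61.5%, and the 75th percentile over detected probes 32.3% and 40.1%, in the same order. The cause was not tested. The t-test alternative was not run. No paired analysis was possible because there was 1 array per condition.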

Other observations

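Slfn1 had the widest range of the 7 Schlafen genes over the 3 arrays, 0.43 on the log2 scale, though with normexp background correction its differences from LPS alone (0.26 and 0.21) were under those of Slfn2 (0.34 and 0.33). Of 17405 genes flagged as well above background throughout, the 5 with the most similar pattern were 9530082P21Rik, Nsun4, Esrra, Swt1 and ENSMUST00000180234, with distances of 0.0023 to 0.0049 between centred log2 levels. This likeness rests on 3 arrays and is not specific, since 7753 genes (44.5%, Slfn1 included) lay within the technical SD of dim probes from Slfn1.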
